A study of Sus scrofa with 9 samples.

Results

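In granulosa cells of the pig ovary, 92 genes had lower transcript levels with sulforaphane and higher levels with follicle-stimulating hormone (FSH) than in control cells. They were chosen from the 1081 rows of the deposited table by their group means in FPKM, fragment counts scaled to transcript length and library size. The sulforaphane mean had to be at most the control mean divided by 1.5, the FSH mean at least 1.5 times the control mean, and the highest of the 3 group means at least 1 FPKM. These limits were met by 114 rows. Of these, 3 carry no gene symbol, and 19 were left out by name: solute carriers, a potassium channel, SOX and ZNF factors, and single genes such as CTSL, IGFBP4 and LHCGR. Both differences from control therefore chose the genes, and both use the same control libraries. The differences are given below as descriptions without a test, a fall being the control mean over the sulforaphane mean and a rise the FSH mean over the control mean.

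Poly(A) RNA was sequenced from primary wild-type granulosa cells in 3 control, 3 sulforaphane and 3 FSH libraries. No dose, duration or animal age is given. Nothing in the labels tells if replicates are distinct animals or cultures, so p-values below measure only the spread between these samples, which may be technical. Estimated depth was 16.6 to 22.3 M fragments per library, of which the table held 6.72% to 8.38%. Of 919 genes tested, 915 differed between sulforaphane and control by edgeR's quasi-likelihood test with Benjamini-Hochberg adjustment, so shares of genes called describe the table and not the transcriptome. Of 15 listed granulosa cell markers, 5 were analysed here (INHBA, HSD17B1, AMHR2, KITLG and FST). Their mean log2(FPKM + 1) was 3.187 to 3.288 in the control libraries, 2.865 to 3.002 with sulforaphane and 3.844 to 3.907 with FSH. The markers did not move alike: with sulforaphane KITLG and FST were higher than in controls, at 6.30 ± 0.986 against 4.69 ± 0.654 FPKM and 34.6 ± 7.04 against 19.8 ± 1.13 FPKM. AMHR2, with reads partly divided between loci, was lower under both treatments, at 0.553 ± 0.0473 FPKM with sulforaphane and 1.10 ± 0.179 FPKM with FSH against 2.57 ± 0.329 FPKM (SD, n = 3 each). The other listed granulosa markers, the FSH receptor among them, were not analysed here. Of 8 smooth muscle markers 7 were analysed, and their mean was 5.284 to 5.435 in controls, 3.735 to 3.871 with sulforaphane and 4.479 to 4.597 with FSH. Among them CNN1, left out of the 92 by name, and MYOCD were 1.53-fold and 1.36-fold higher with FSH and the other 5 lower. The mean of 3 surface epithelium keratins was 3.703 to 3.908 in controls, 2.397 to 2.571 with sulforaphane and 3.134 to 3.242 with FSH, and that of 3 stromal fibroblast markers 4.1 to 4.213, 3.566 to 3.799 and 3.593 to 3.77. Of these 3 stromal markers PDGFRB was higher with sulforaphane, at 13.1 ± 2.05 against 9.47 ± 0.650 FPKM. THY1 and COL1A1 were lower with sulforaphane, and all 3 were lower with FSH. CYP11A1 and LHCGR, from a list of 8 theca markers, had a mean of 4.334 to 4.524, 3.566 to 4.096 and 5.563 to 5.797. Both are also listed as luteal markers and, below, as FSH and cAMP response genes, so they do not mark theca cells alone. The part of these cell types in the results below was not tested. In bulk samples, fewer cells of a type and less RNA per cell cannot be told apart.

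As background, FSH binds a G protein-coupled receptor on granulosa cells, raises cyclic AMP and activates protein kinase A, and this drives steroid synthesis and follicle growth. Sulforaphane is an isothiocyanate from cruciferous vegetables. It modifies KEAP1, which frees the transcription factor NRF2 to induce antioxidant and detoxifying genes.

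Most of the 92 genes were expressed at low to moderate levels. The control mean ranged from 0.387 to 52.6 FPKM with a median of 2.08 FPKM, compared with a median of 5.39 FPKM over the 852 rows that passed the same limits on name and level. Control means were at least 10 FPKM in 15 genes and below 1 FPKM in 15. With sulforaphane 44 genes had a mean below 1 FPKM. The sum of estimated counts over the 3 sulforaphane libraries was below 100 in 28 genes and lowest for NXPH2, at 29 counts (95% exact Poisson interval 19.4 to 41.6, counting error only).

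The fall with sulforaphane ranged from 1.5-fold to 5.76-fold with a median of 1.93-fold, and the rise with FSH from 1.5-fold to 10.9-fold with a median of 1.75-fold. Over the 852 rows, the sulforaphane limit was met by 49.4% and the FSH limit by 28.1%. On the log2 scale the fall exceeded the rise in 57 genes and the rise exceeded the fall in 35. Both changes were at least 2-fold in 21 genes and at least 3-fold in 2, NOV and HKDC1. Between FSH and sulforaphane the group means differed by 2.29-fold to 20.4-fold, with a median of 3.84-fold.

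**Figure D1:**
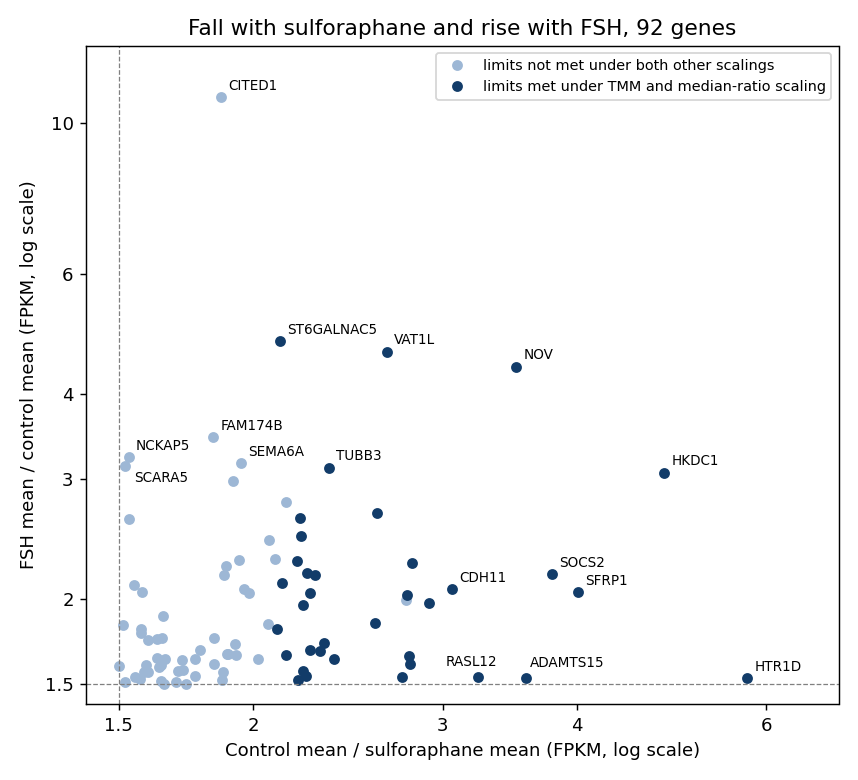
Control mean divided by sulforaphane mean (horizontal) against FSH mean divided by control mean (vertical) for the 92 genes, both from FPKM and on log scales, with dashed lines at the limit of 1.5. Both axes share the control libraries. Dark points are the 36 genes that also met the limits under TMM and under median-ratio scaling. HTR1D lies farthest to the right at 5.76-fold and CITED1 highest at 10.9-fold.

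In 85 of the 92 genes every sulforaphane library lay below every control library. Over the 852 rows this was so in 64.4%. Every FSH library lay above every control library in all 92 genes, against 52.5% of the rows. Both held in 85 genes, against 23.1% of the rows. Since the same contrasts chose the genes, nothing is read from this. The same holds for single genes whose groups are described below as apart or in order. The exceptions with overlapping sulforaphane and control libraries were ETV1, ETV4, LAYN, TMSB15A, PLAC8, TUBB4A and CEND1.

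**Figure D2:**
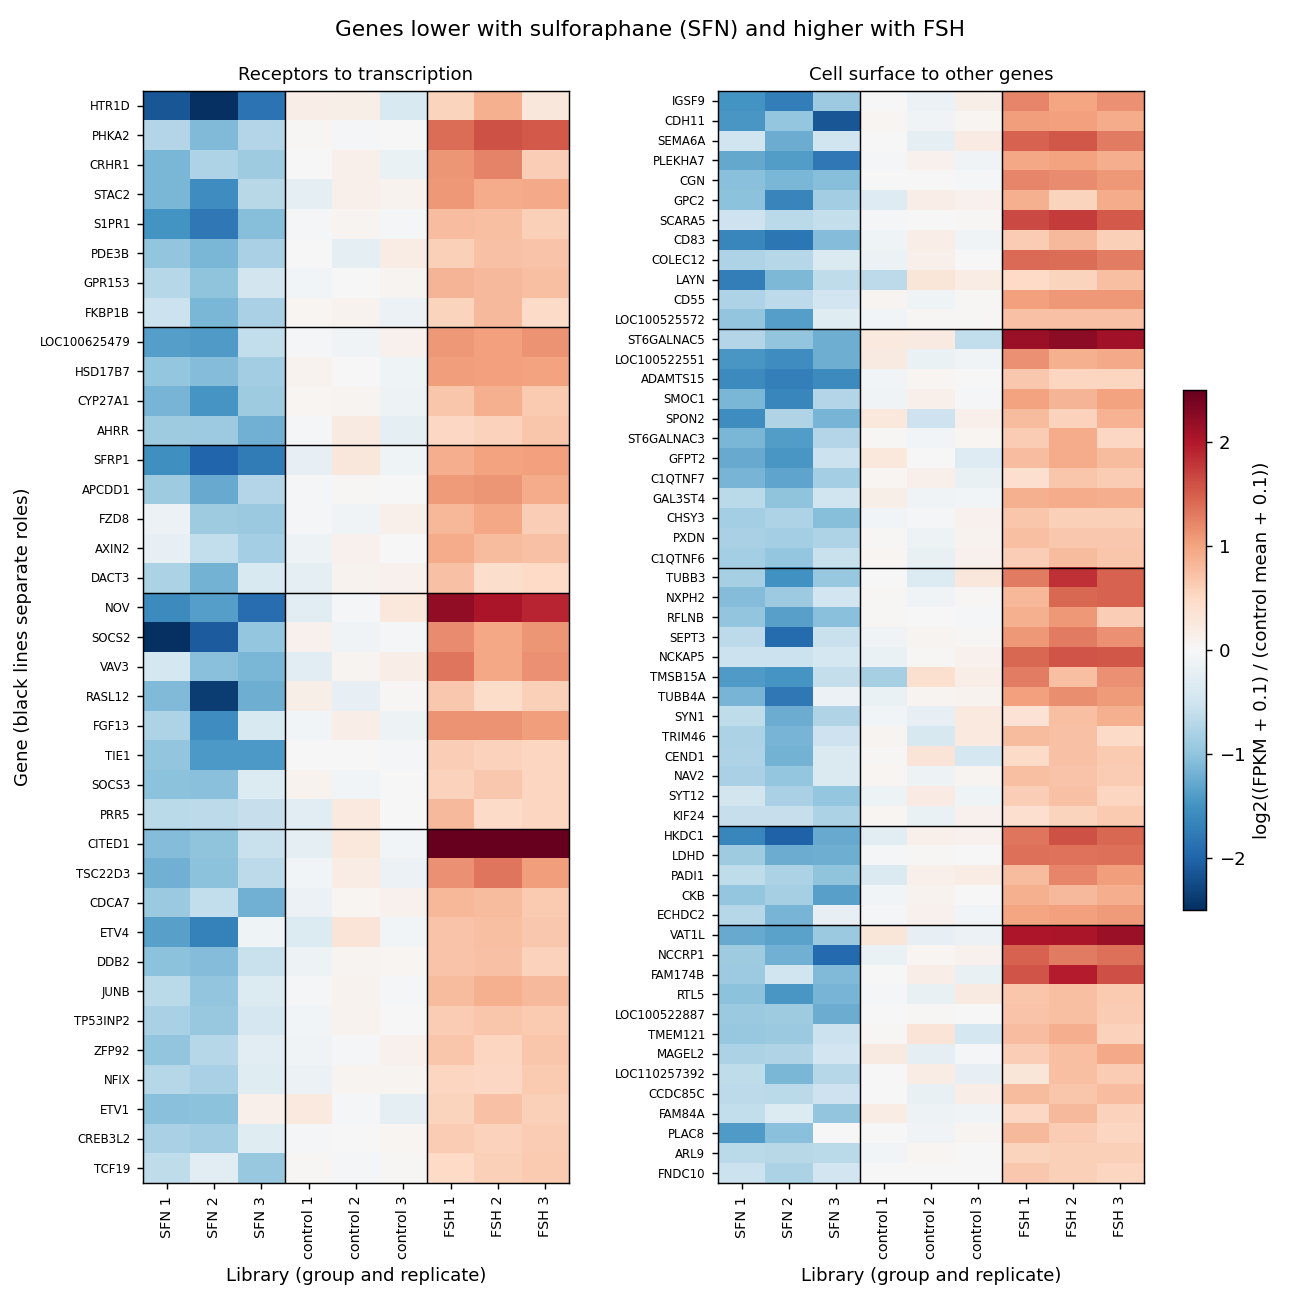
Level of each of the 92 genes (rows, ordered by role) in each of the 9 libraries (columns), as log2 of FPKM + 0.1 over the control mean + 0.1, blue below and red above the control mean. The colour scale ends at 2.5 in either direction, which CITED1 exceeds in the FSH libraries, HTR1D in sulforaphane replicate 2 and SOCS2 in sulforaphane replicate 1. The FSH columns are alike, while sulforaphane replicate 3 is paler than replicates 1 and 2 in many rows.

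The libraries of the sulforaphane group differed most among themselves. The median coefficient of variation over the 92 genes was 22.1% with sulforaphane, 9.79% in controls and 6.41% with FSH, compared with 15.3%, 7.46% and 5.88% over the 852 rows. Against the other libraries of the group, sulforaphane replicate 3 was higher by a median log2 of 0.33 and replicate 2 lower, at -0.31. Replicate 3 was the highest of its group in 56 genes (60.9%, against 57.2% of the 852 rows) and replicate 2 the lowest in 56 (60.9%, against 41.7%). Taken alone, replicates 1 and 2 met the sulforaphane limit in 86 and 89 genes and replicate 3 in 63. The mean of these libraries chose the genes, so their selection favours high counts. By the group mean 49.4% of the 852 rows met the limit, and no count by single library was made over them. In SOCS2, ETV1, ETV4, PLAC8 and TUBB4A, replicate 3 was at least 2 times as high as either other library. Without replicate 3 the rule selected 97 genes, of which 88 were among the 92, and without replicate 2 it selected 84, of which 80 were.

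**Figure D3:**
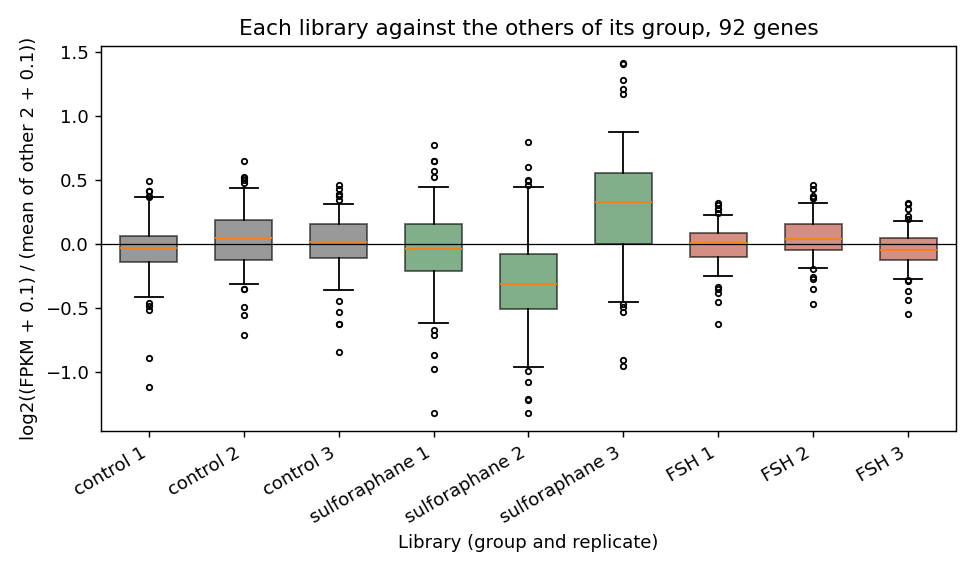
Log2 of FPKM + 0.1 in each library over the mean of the other 2 libraries of its group + 0.1, over the 92 genes. Boxes span the quartiles with the median as a line, whiskers the percentiles from 5 to 95, and points the genes beyond. Medians lie near 0 in control and FSH libraries, at -0.31 in sulforaphane replicate 2 and at 0.33 in replicate 3.

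The size of the fall depended on how libraries were scaled. TMM and median-ratio factors take most rows as unchanged and can remove a change that most rows share. Of the 919 tested genes, 915 were called with sulforaphane with depth as the scale, 613 with TMM and 686 with median-ratio factors. Which scale fits these data was not tested. A limit or threshold met with depth, or missed under these factors, therefore does not settle whether a gene fell. The table held 8.14% to 8.38% of the depth in controls and 6.72% to 7.24% with sulforaphane. Over the 919 tested genes, which reach 1 FPKM in 3 or more libraries, the median log2 change with sulforaphane was -0.56 with depth as the scale, -0.20 after median-ratio and -0.09 after TMM scaling (factors computed from these rows). For the 92 genes the median was -0.96, -0.61 and -0.49. All 92 remained below control with sulforaphane and above it with FSH under each scaling, a direction that their selection favours. Median-ratio factors left 46 of the 92 within the limits, TMM factors 38, and 36 met them under both.

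Receptors and second messenger proteins made up 8 of the genes. HTR1D, a serotonin receptor coupled to the inhibitory G protein of adenylyl cyclase, had the largest fall. It stood at 2.31, 2.29 and 1.56 FPKM in the control libraries, at 0.39, 0.18 and 0.5 FPKM with sulforaphane and at 3.05, 3.86 and 2.52 FPKM with FSH. That is 5.76-fold lower and 1.53-fold higher than control, and the sulforaphane values rest on 17, 10 and 15 counts. In the edgeR fit of the counts its log2 rise was larger, at 0.94 against 0.61 from the FPKM means. CRHR1, the receptor of corticotropin-releasing hormone, read 0.59, 0.65 and 0.51 FPKM in controls, 0.21, 0.3 and 0.27 under sulforaphane and 1.36, 1.51 and 0.95 FPKM with FSH (2.24-fold lower, 2.18-fold higher). All its libraries kept the order of their groups at these low levels, and its sulforaphane values rest on 9 to 17 counts. S1PR1, a receptor of sphingosine-1-phosphate, went from 3.98 ± 0.147 to 1.43 ± 0.391 FPKM with sulforaphane and stood at 6.57 ± 0.434 FPKM with FSH (SD, n = 3 each).

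PDE3B, a phosphodiesterase that degrades cyclic AMP, was at 1.16, 0.99 and 1.35 FPKM in controls, 0.54, 0.47 and 0.62 under sulforaphane and 1.81, 2.01 and 1.97 FPKM with FSH. Its groups did not overlap, with a 2.15-fold fall and a 1.65-fold rise. PHKA2, a regulatory subunit of phosphorylase kinase in glycogen breakdown, had the largest rise of these 8, 2.98-fold, to 4.14 ± 0.311 FPKM. STAC2, which binds voltage-gated calcium channels, FKBP1B, which binds ryanodine receptors, and the orphan receptor GPR153 (reads partly divided between loci) were 2.26-fold, 1.77-fold and 1.65-fold lower with sulforaphane and 2.04-fold, 1.54-fold and 1.75-fold higher with FSH.

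Genes of sterol and steroid metabolism and of the response to aryl hydrocarbons were 4. HSD17B7, which acts in cholesterol synthesis and converts oestrone to oestradiol, was at 9.03, 8.64 and 7.91 FPKM in controls, 4.31, 3.95 and 4.65 under sulforaphane and 17.6, 17.4 and 17.23 FPKM with FSH. The libraries of each treatment lay close together, and the changes were 1.98-fold and 2.04-fold. LOC100625479, described in the file as cytochrome P450 1B1, a hydroxylase of oestradiol and of aryl hydrocarbons, was the most abundant of the 4. It read 24.49, 23.56 and 26.72 FPKM in controls, 9.6, 9.33 and 16.17 under sulforaphane and 52.78, 50.76 and 54.47 FPKM with FSH (2.13-fold lower, 2.11-fold higher). Sulforaphane replicate 3 was the highest of its group here. CYP27A1, the sterol 27-hydroxylase of mitochondria, went from 14.1 ± 1.06 to 6.24 ± 1.28 FPKM with sulforaphane and to 23.8 ± 2.07 FPKM with FSH. AHRR, the repressor of the aryl hydrocarbon receptor, went from 0.957 ± 0.176 to 0.430 ± 0.0608 and 1.5 ± 0.0917 FPKM (SD, n = 3 each).

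The WNT pathway had 5 genes, of which 4 restrain it. SFRP1, a secreted protein that binds WNT ligands, was at 1.23, 1.77 and 1.33 FPKM in controls, 0.43, 0.29 and 0.36 under sulforaphane and 2.79, 3.01 and 3.06 FPKM with FSH. The groups were well apart, with a 4.01-fold fall and a 2.05-fold rise. APCDD1, a membrane inhibitor of WNT signalling, went from 4.67 ± 0.0764 to 2.38 ± 0.455 FPKM with sulforaphane and to 9.66 ± 0.624 FPKM with FSH. AXIN2, a scaffold of the complex that degrades beta-catenin, was 1.51-fold lower with sulforaphane and 1.83-fold higher with FSH, DACT3, an inhibitor of dishevelled, 1.73-fold and 1.5-fold, and FZD8, a WNT receptor, 1.57-fold and 1.80-fold. In AXIN2 and FZD8 sulforaphane replicate 1 lay nearest to the controls, at 0.87 against 0.92 FPKM or more and at 1.36 against 1.41 FPKM or more. With TMM or median-ratio factors SFRP1 was the member of this group that met the limits under both.

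Cytokine, kinase and growth factor signalling accounted for 8. NOV, a matrix-associated protein of the CCN family, ranked first of all 92 by the smaller of its changes. It was measured at 1.26, 1.51 and 1.9 FPKM in controls, at 0.45, 0.54 and 0.34 FPKM with sulforaphane and at 7.64, 6.73 and 6.14 FPKM with FSH, a 3.51-fold fall and a 4.39-fold rise. SOCS2, a suppressor of cytokine signalling that restrains the growth hormone receptor, was at 2.14, 1.85 and 1.93 FPKM in controls, 0.21, 0.39 and 0.96 under sulforaphane and 4.59, 3.93 and 4.35 FPKM with FSH. Its fall of 3.79-fold is smallest in sulforaphane replicate 3, which had 36 counts against 8 and 10 in the others. SOCS3, which inhibits JAK kinases, was more abundant, at 33.13, 29.75 and 31.03 FPKM in controls, 15.42, 15.15 and 24.82 under sulforaphane and 46.64, 49.81 and 45.36 FPKM with FSH (1.70-fold lower, 1.51-fold higher). In the edgeR fit of the counts its log2 rise was 0.52, against 0.59 from the FPKM means, and so less than 1.5-fold.

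Among the remaining 5, RASL12, a RAS-like GTPase, was 3.23-fold lower with sulforaphane and 1.54-fold higher with FSH. TIE1, a receptor tyrosine kinase best known from endothelial cells, was 2.75-fold lower with sulforaphane, at 0.427 ± 0.0981 FPKM, and 1.53-fold higher with FSH, at 1.80 ± 0.0400 FPKM. Of 6 listed endothelial markers KDR alone was analysed here, and it moved otherwise, from 0.0900 ± 0.0100 FPKM in controls to 1.17 ± 0.434 FPKM with sulforaphane and 0.307 ± 0.0551 FPKM with FSH. VAV3, FGF13, an intracellular fibroblast growth factor, and PRR5, a component of mTOR complex 2, were 2.07-fold, 1.89-fold and 1.60-fold lower with sulforaphane and 2.44-fold, 2.24-fold and 1.56-fold higher with FSH.

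Regulators of transcription, chromatin and DNA repair numbered 12. CITED1, a coactivator that binds CBP and p300, had the largest rise: 3.25, 4.59 and 3.62 FPKM in controls, 1.74, 1.84 and 2.55 under sulforaphane, and 41.15, 45.27 and 38.7 FPKM with FSH. The FSH libraries were all far above the rest, 10.9-fold over control, while the fall was 1.87-fold. It lies on chromosome X from 58179084 to 58184778 in the Sscrofa11.1 annotation. TSC22D3, the glucocorticoid-induced leucine zipper, went from 9.70 ± 1.22 to 5 ± 1.02 FPKM with sulforaphane and to 22.2 ± 2.29 FPKM with FSH. JUNB, a subunit of the transcription factor AP-1, was at 11.72, 12.7 and 11.62 FPKM in controls, 7.46, 6.03 and 9.42 under sulforaphane and 20.82, 22.28 and 21.2 FPKM with FSH (1.57-fold lower, 1.78-fold higher).

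ETV1 and ETV4, related ETS transcription factors, shared a pattern among the sulforaphane libraries. ETV4 was at 1.16, 0.91 and 2.91 FPKM there against 2.46, 3.96 and 3.01 FPKM in controls, and ETV1 at 0.58, 0.59 and 1.44 FPKM against 1.56, 1.26 and 1.1 FPKM. In both, sulforaphane replicate 3 reached the control range. Both genes were above every control library with FSH, at 5.22 ± 0.140 and 2.08 ± 0.144 FPKM. CREB3L2, a membrane-bound factor of the endoplasmic reticulum, and TP53INP2, a regulator of autophagy, were among the more abundant genes, at 24.2 ± 0.649 and 22.03 ± 1.23 FPKM in controls, 15.6 ± 3.53 and 13.5 ± 2.69 under sulforaphane, and 37.2 ± 0.945 and 34.96 ± 0.775 FPKM with FSH. DDB2, which recognises ultraviolet damage in DNA, CDCA7, ZFP92, NFIX (reads partly divided between loci) and TCF19 were 1.84-fold, 1.92-fold, 1.59-fold, 1.57-fold and 1.52-fold lower with sulforaphane and 1.60-fold, 1.72-fold, 1.60-fold, 1.52-fold and 1.51-fold higher with FSH.

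Adhesion, junction and other cell surface proteins were 12. CGN, cingulin of tight junctions, was at 3.56, 3.56 and 3.47 FPKM in controls, 1.65, 1.54 and 1.63 under sulforaphane and 8.41, 8.09 and 7.61 FPKM with FSH. Its libraries hardly varied within a group, and the changes were 2.2-fold and 2.28-fold. IGSF9, an immunoglobulin superfamily adhesion protein, was at 1.45, 1.3 and 1.61 FPKM in controls, 0.45, 0.37 and 0.73 under sulforaphane and 3.51, 2.99 and 3.33 FPKM with FSH (2.81-fold lower, 2.25-fold higher). CDH11, a cadherin with reads partly divided between loci, and PLEKHA7, of adherens junctions, were 3.06-fold and 2.92-fold lower with sulforaphane and 2.07-fold and 1.97-fold higher with FSH. In both, sulforaphane replicate 3 was the lowest library, at 0.28 and 0.91 FPKM.

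CD83, a surface glycoprotein known from dendritic cells, had the highest mean of the 92 genes in controls and with FSH, while PXDN had the highest with sulforaphane. It read 49.08, 59.35 and 49.24 FPKM in controls, 16.87, 14.86 and 24.66 under sulforaphane and 81.58, 91.69 and 79.39 FPKM with FSH (2.80-fold lower, 1.60-fold higher). None of 8 listed leukocyte markers was analysed here, so whether leukocytes contributed was not tested. SCARA5, a scavenger receptor that binds ferritin, had a larger rise than fall: 20.25, 20.46 and 21.15 FPKM in controls, 14.28, 12.84 and 13.54 under sulforaphane, and 64.9, 69.45 and 59.64 FPKM with FSH (1.52-fold lower, 3.14-fold higher). COLEC12, a scavenger receptor with a collectin domain, had a like profile, 1.54-fold lower and 2.62-fold higher. CD55, which limits complement activation, went from 17.6 ± 1.09 to 11.3 ± 1.20 and 36.8 ± 0.685 FPKM (SD, n = 3 each). SEMA6A, a semaphorin, GPC2, a glypican, LAYN, a hyaluronan receptor, and LOC100525572, described as SLAM family member 9, were 1.95-fold, 2.60-fold, 2.24-fold and 1.79-fold lower with sulforaphane and 3.17-fold, 1.84-fold, 1.54-fold and 1.68-fold higher with FSH.

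Matrix proteins and enzymes of glycan synthesis were also 12. PXDN, peroxidasin, which cross-links collagen IV, was at 35.82, 31.91 and 37.1 FPKM in controls, 19.78, 19.27 and 20.33 under sulforaphane and 59.21, 55.95 and 55.87 FPKM with FSH. The sulforaphane libraries lay close together and below every control, and the changes were 1.77-fold and 1.63-fold. ADAMTS15, a proteoglycan-cleaving protease, was 3.59-fold lower with sulforaphane, at 0.407 ± 0.0231 against 1.46 ± 0.0656 FPKM, and 1.53-fold higher with FSH. The sialyltransferases ST6GALNAC5 and ST6GALNAC3, which act on gangliosides, differed in their rise: ST6GALNAC5 went from 1.20 ± 0.390 to 5.74 ± 0.250 FPKM with FSH (4.78-fold) and ST6GALNAC3 from 1.13 ± 0.0529 to 1.90 ± 0.307 FPKM (1.68-fold). Their falls with sulforaphane were 2.12-fold and 2.31-fold.

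Sulphation and chain synthesis were represented by LOC100522551, described as carbohydrate sulfotransferase 6 (2.78-fold lower, 2.03-fold higher), GAL3ST4, a galactose sulfotransferase with reads partly divided between loci (1.65-fold, 1.88-fold), and CHSY3, a chondroitin synthase (1.88-fold, 1.56-fold). GFPT2, which supplies hexosamine precursors, was 2.10-fold lower with sulforaphane and 1.81-fold higher with FSH. The secreted proteins SMOC1, SPON2, C1QTNF6 and C1QTNF7 were between 1.72-fold and 2.33-fold lower with sulforaphane and between 1.52-fold and 1.96-fold higher with FSH, with C1QTNF6 the most abundant, having a control mean of 26.4 ± 2.85 FPKM. In the edgeR fit of the counts the log2 rise of C1QTNF7 was 0.55, against 0.61 from FPKM, and so less than 1.5-fold.

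A group of 13 genes encodes cytoskeletal proteins or proteins best known from neurons. TUBB3, the beta-tubulin of neurons, was named from an assembled locus without a reference identifier, and its reads were partly divided between loci. It read 0.97, 0.75 and 1.22 FPKM in controls, 0.51, 0.28 and 0.46 under sulforaphane and 2.57, 3.71 and 2.89 FPKM with FSH. Its fold changes of 2.35 down and 3.12 up are therefore uncertain. SEPT3, a septin whose symbol the file holds in a date form, was at 0.58, 0.65 and 0.63 FPKM in controls, 0.36, 0.09 and 0.39 under sulforaphane and 1.42, 1.68 and 1.5 FPKM with FSH. Sulforaphane replicate 2, with 6 counts, lay far below the other replicates, and the changes were 2.21-fold and 2.47-fold. TMSB15A, an actin-binding thymosin, was at 1.01, 2.5 and 2.11 FPKM in controls, 0.64, 0.61 and 1.21 under sulforaphane and 4.7, 3.22 and 4.27 FPKM with FSH. The first 2 groups overlap, and the sulforaphane values rest on 8 to 15 counts.

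Of the other 10 in this group, NCKAP5 had the largest rise, 3.24-fold from 0.537 ± 0.0611 to 1.74 ± 0.0929 FPKM, and a fall of 1.53-fold. NXPH2, a neurexophilin, and RFLNB, an actin-associated refilin, were near 1 FPKM with FSH. TUBB4A, another beta-tubulin, whose reads were partly divided between loci, was at 1.32, 0.82 and 2.74 FPKM with sulforaphane, so that replicate 3 entered the control range of 2.71 to 3.25 FPKM. SYN1 and SYT12, of synaptic vesicles, NAV2, TRIM46, CEND1 and KIF24, a kinesin, were between 1.63-fold and 1.93-fold lower with sulforaphane and between 1.5-fold and 1.66-fold higher with FSH. Reads of NAV2 and KIF24 were partly divided between loci.

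Energy and other metabolism contributed 5 genes. HKDC1, a hexokinase family protein, was at 0.43, 0.61 and 0.6 FPKM in controls, 0.11, 0.06 and 0.17 under sulforaphane and 1.53, 1.85 and 1.65 FPKM with FSH. Its groups were far apart, with a 4.82-fold fall and a 3.07-fold rise. LDHD, the mitochondrial dehydrogenase of D-lactate, was at 4.31, 4.5 and 4.44 FPKM in controls, 2.34, 1.8 and 1.85 under sulforaphane and 11.69, 11.54 and 11.58 FPKM with FSH. The FSH libraries were nearly equal, and the changes were 2.21-fold and 2.63-fold. CKB, the brain-type creatine kinase, went from 12.8 ± 0.724 to 6.19 ± 1.13 FPKM with sulforaphane and to 23.4 ± 0.808 FPKM with FSH, whereas ECHDC2 and PADI1, a peptidylarginine deiminase, were 1.58-fold and 2.10-fold lower with sulforaphane and 2.05-fold and 2.29-fold higher with FSH.

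The last 13 genes have other or little known roles. LOC100522887, described as caspase-13, was the most abundant, at 26.83, 27.66 and 26.84 FPKM in controls, 14.27, 14.55 and 11.42 under sulforaphane and 44.68, 45.84 and 42.17 FPKM with FSH (2.02-fold lower, 1.63-fold higher). VAT1L, with reads partly divided between loci, read 1, 0.67 and 0.7 FPKM in controls, 0.27, 0.25 and 0.37 under sulforaphane and 3.5, 3.56 and 3.89 FPKM with FSH (2.66-fold lower, 4.62-fold higher). NCCRP1 was at 1.87, 2.16 and 2.26 FPKM in controls, 1.09, 0.85 and 0.47 under sulforaphane and 5.97, 5.29 and 5.59 FPKM with FSH (2.61-fold lower, 2.68-fold higher). In none of these 3 genes did groups overlap, which their selection favours. FAM174B was 1.84-fold lower with sulforaphane and 3.46-fold higher with FSH, at 5.79 ± 0.926 FPKM. RTL5, ARL9, MAGEL2, PLAC8, FNDC10, CCDC85C, FAM84A, TMEM121 and LOC110257392 (reads partly divided between loci) were between 1.58-fold and 2.38-fold lower with sulforaphane and between 1.51-fold and 1.75-fold higher with FSH.

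**Figure D4:**
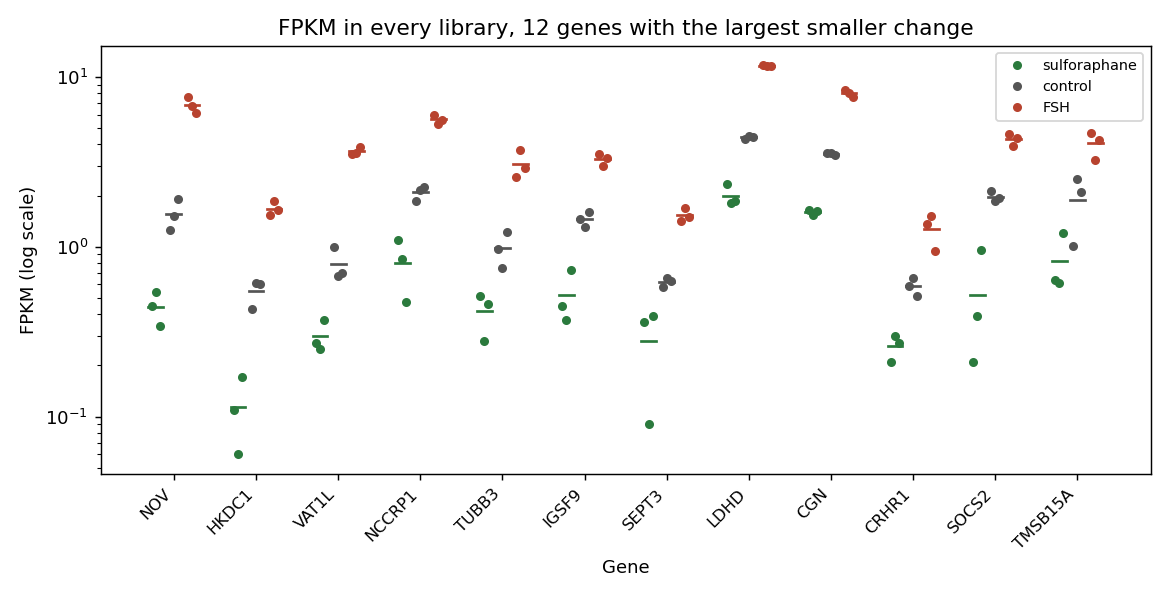
FPKM on a log axis in each sulforaphane, control and FSH library (points) with the group mean (bar) for the 12 genes ranked highest by the smaller of their changes. TMSB15A is the gene among them in which a control library falls among the sulforaphane libraries, and SOCS2 shows sulforaphane replicate 3 at 0.96 FPKM above the others.

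At the limits, the genes just inside were KIF24 and DACT3, with rises of 1.5-fold, ETV1, with a fall of 1.5-fold, and TCF19, with a rise of 1.51-fold. Just outside were LOC595122, RFTN2, NNAT and NREP, whose rises with FSH were 1.498-fold, 1.496-fold, 1.494-fold and 1.492-fold. NREP was 4.41-fold lower with sulforaphane, at 2.81 ± 0.400 against 12.4 ± 1.77 FPKM, a difference that HTR1D and HKDC1 alone exceed among the 92.

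Features that the rule did not use were read from the annotation. Of the 92 genes 91 have an entry in the reference gene table of Sscrofa11.1, with a median gene span of 25694 bases, against 27547 bases for 845 of the 852 rows. Chromosome 6 held 16 of the genes (17.6%, against 8.17% of the rows) and chromosome 2 held 12 (13.2%, against 7.93%). Chromosomes 4 and X held 8 each (8.79%, against 6.98% and 4.14%). Chromosomes 1 and 14 held 2 each (2.2%, against 7.46% and 7.34%). These shares were not tested. Within 1 Mb of each other lay 5 pairs, and no such count was made over the 852 rows. GAL3ST4 (chromosome 3, 8162909 to 8168810) and GPC2 (8169229 to 8175848) are 0.4 kb apart. The protocols name no strand-specific step, and whether reads near their boundary can be assigned by strand was not tested. ST6GALNAC5 (chromosome 6, 136207838 to 136391083) and ST6GALNAC3 (136633410 to 137201213) are 242.3 kb apart, NFIX and JUNB on chromosome 2 157.5 kb, RTL5 and CITED1 on chromosome X 166.1 kb, and LOC100522551 and LDHD on chromosome 6 359.9 kb.

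KEGG pathways were assigned in the authors' deposited table to 37 of the 92 genes and to 363 of the 852 rows. The broad class of metabolic pathways was as common among the genes (8, 21.6%) as among the rows (21.5%). The insulin signalling pathway was assigned to 5 of the genes (HKDC1, PDE3B, PHKA2, SOCS2 and SOCS3), 13.5% against 3.03% of the annotated rows. The cAMP signalling pathway was assigned to 4 (CREB3L2, HTR1D, PDE3B and VAV3), 10.8% against 3.03%, and the Wnt signalling pathway to 3, 8.11% against 3.58%. Classes further from these cells had like shares. They include Cushing syndrome (4, 10.8% against 4.13%), type II diabetes mellitus (3, 8.11% against 1.1%) and phagosome (3, 8.11% against 1.65%). Pathways in cancer were less common than among the rows (3, 8.11% against 11.6%). Only classes assigned to at least 3 of the 92 genes were compared, which favours shares above those of the rows. These shares describe the annotation and were not tested.

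Gene lists drawn up for these cells place the 92 genes beside the rest of their pathways. The rest of each list was tested with edgeR's quasi-likelihood test and Benjamini-Hochberg adjustment over all 919 genes. By that test 65.3% of the genes were lower and 34.3% higher with sulforaphane than in controls, and 55.3% were higher and 42.7% lower with FSH. Between FSH and sulforaphane 42.8% were higher and 12.9% lower. A list whose genes all pass is therefore close to the background. Of 49 listed FSH and cAMP response genes, JUNB was among the 92, and CTSL, INHBA, LHCGR, NR4A1 and PTX3 met the limits but were left out by name. Of the 14 tested besides JUNB, these 5 included, 9 fell and 5 rose with sulforaphane, and 11 rose and 3 fell with FSH, with median log2 changes of -0.57 and 1.025 against -0.56 and 0.41 over all genes. For these 5 the limits of the rule fixed both directions, so they are described without a p-value. They are among the 9 that fell and the 11 that rose and enter both medians, so nothing is read from these counts and medians. NR4A1, an immediate-early nuclear receptor, went from 8.14 ± 0.622 to 1.96 ± 0.146 FPKM with sulforaphane and to 22.3 ± 2.59 FPKM with FSH. CTSL, a lysosomal protease, rose with FSH from 7.28 ± 0.605 to 1053 ± 83.7 FPKM and fell with sulforaphane to 3.24 ± 0.528 FPKM. INHBA, an inhibin and activin subunit whose reads were partly divided between loci, and PTX3, a matrix protein of the cumulus, changed by -0.66 and -0.89 with sulforaphane and by 1.53 and 0.61 with FSH. With TMM factors the fall of INHBA was smaller, at -0.19. ADAMTS1, a protease of the ovulating follicle with reads partly divided between loci, moved the other way, at 0.86 and -0.50.

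Of 28 listed steroidogenesis genes, HSD17B7 was among the 92, and the other 3 tested fell with sulforaphane and rose with FSH. All 3 are on the rule's list of names left out, and HSD17B1 met its limits, which fixed both its directions. They were CYP11A1, which makes pregnenolone, FDXR, of its electron supply chain, and HSD17B1, which makes oestradiol. Their log2 changes were -0.53, -0.53 and -1.03 with sulforaphane and 1.91, 1.16 and 0.90 with FSH. With TMM factors the falls of all 3 were smaller, at -0.07, -0.06 and -0.55. Those of CYP11A1 and FDXR missed the threshold with TMM and with median-ratio factors. HSD17B7 met the limits of the rule with median-ratio factors and missed them with TMM factors.

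Of 62 listed components of cAMP, G protein and phosphodiesterase signalling, PDE3B was among the 92. Of the other 7 tested, 5 fell and 2 rose with sulforaphane, while 4 rose and 3 fell with FSH. RGS4, a regulator of G protein signalling, and GNG2, a G protein gamma subunit, had log2 changes of -1.14 and -0.64 with sulforaphane and 3.20 and 0.41 with FSH. The FPKM means of RGS4 were nearer to each other, at 0.613 ± 0.119 in controls and 0.413 ± 0.0416 with sulforaphane, and the fall of GNG2 missed the threshold with TMM factors, at -0.16. PDE8B, another cyclic AMP phosphodiesterase, with reads partly divided between loci, moved opposite to PDE3B, at 0.47 with sulforaphane and -0.50 with FSH (adjusted p = 0.0117 and 0.00982, edgeR). GRK5, a receptor kinase, changed by -0.45 with sulforaphane and 0.61 with FSH, and its sign with sulforaphane turned with TMM factors, at 0.02.

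No NRF2 target gene was among the 92. Of 45 listed, 11 were tested and all rose with sulforaphane, with a median log2 change of 2.94. With FSH 6 rose, 4 fell and 1 did not pass. HMOX1, EPHX1 (reads partly divided between loci), BLVRB and PIR were higher with sulforaphane, by 2.94, 1.70, 1.63 and 2.53, and lower with FSH, by log2 changes of -1.03, -0.79, -0.44 and -0.66. The fall of PIR missed the threshold without control replicate 2 (-0.51) or FSH replicate 2 (-0.55). HMOX1, which degrades haem, went from 100.2 ± 8.96 FPKM in controls to 49.2 ± 2.73 FPKM with FSH (adjusted p = 0.000782, edgeR).

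None of the cell cycle genes on the list of 52 was among the 92 either. Of 8 tested, all fell with sulforaphane, and with FSH 5 rose and 3 fell. MCM2, MCM5 and MCM7, of the replicative helicase, changed by -0.70, -0.65 and -0.51 with sulforaphane and by 0.42, 0.43 and 0.47 with FSH. Their falls missed the threshold with TMM factors, at -0.21, -0.16 and -0.02, and with median-ratio factors. The rise of MCM2 missed it with median-ratio factors (0.41) and, at 0.37 to 0.44, without control replicate 2 or 3 or any 1 of the FSH replicates, and that of MCM5 without control replicate 2 (0.37). Reads of MCM7 were partly divided between loci. CCND3, cyclin D3, likewise divided, and E2F1, a transcription factor of S phase, changed by -0.72 and -0.47 with sulforaphane and 0.41 and 0.48 with FSH, and the sign of E2F1 with sulforaphane turned with TMM factors, at 0.02. LHCGR and PTGFR, of the list for luteinization, met the limits and were left out by name. Among 7 tested genes of luteinization and prostaglandin signalling, LHCGR and PTGFR included, 5 fell and 2 rose with sulforaphane and 4 rose and 3 fell with FSH. The limits of the rule fixed both directions of LHCGR and PTGFR, so nothing is read from these counts. The luteinizing hormone receptor LHCGR went from 2.04 ± 0.153 to 0.987 ± 0.132 FPKM with sulforaphane and to 3.59 ± 0.440 FPKM with FSH. PTGFR, the prostaglandin F receptor, changed by -0.72 and 1.004, and its fall was smaller with TMM factors, at -0.26. PPARG, a nuclear receptor of lipid metabolism, changed by 0.39 and -0.71.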

How the data were processed

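RNA was sequenced from 9 libraries in 3 groups. The authors deposited FPKM and an estimated count per gene and library, per the file headers. Per the submitters' processing notes, the build was Sscrofa11.1 and the tools included StringTie 1.3.1, HISAT2, Bowtie2 2.2.8 and fastp, besides edgeR and DESeq2, with roles not stated. Counts were not whole in 143 of 1081 rows (10 of the 92 genes), where reads seem shared out among loci. Columns of other series numbered 0.

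The rule was applied to the deposited FPKM. Dividing counts by FPKM gave each library's depth, relative from 354 genes and absolute from 10 of 346 genes at which this ratio over the gene span was the same within 0.1%. Estimated counts were rounded and fitted in edgeR 4.0.16 (R 4.3.3) with 3 group means, these depths as library sizes, and genes at 1 FPKM in at least 3 libraries (919; 88 of the 92). The biological coefficient of variation was 10.9%. Adjusted p-values (Benjamini-Hochberg, threshold 0.05) are given only for genes outside the 92 that did not meet the limits of the rule. Alternatives used limma 3.58.1 and DESeq2 1.42.0, and the fit was tested on simulated data.

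Members and lists were chosen with earlier results of these data known. The rule for full values took the 12 genes with the largest smaller change, the 6 highest with FSH, list members and the 4 nearest a limit. Other genes with per-library values (HTR1D, SFRP1, CITED1, ETV4 and TUBB4A) were chosen after their values were seen. Roles were assigned by hand. List genes outside the 92 were named where called in both comparisons with opposite signs. Fold changes of list genes are on the log2 scale of the edgeR fit.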

Additional observations from a re-analysis of the deposited data

How the results depend on the processing

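The number of genes selected moved most with the limits and the scaling. It was 210 with a fold limit of 1.3, 21 with a limit of 2, 43 with a highest mean of at least 5 FPKM, 54 with TMM factors (38 of them among the 92) and 46 with median-ratio factors (all among the 92). Depth-scaled counts in place of FPKM gave 92 genes, of which 89 were among the 92 of the rule. Leaving out single libraries gave 84 to 97 genes. The median log2 change of the 92 genes with sulforaphane was -0.49 with TMM and -0.61 with median-ratio factors in place of -0.96, and -1.10 to -0.90 with single libraries left out. With FSH it was 0.996 with TMM factors in place of 0.82, and 0.81 to 0.87 with single libraries left out. Between FSH and sulforaphane it was 1.64 and 1.565 with TMM and median-ratio factors in place of 1.94, and 1.80 to 2.06 with single libraries left out. The cause of the scaling differences was not tested.

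Calls over all genes numbered 915 with sulforaphane, 900 with FSH and 512 between the treatments. They were 489, 485 and 292 with a mean of at least 5 FPKM, which leaves 489 genes to test. With TMM factors the sulforaphane calls were 317 higher and 296 lower, against 315 and 600 with depth. Between the treatments they were 327 and 320, against 393 and 119. With median-ratio factors the sulforaphane calls were 317 higher and 369 lower, and between the treatments 315 and 388. Leaving out single libraries gave 892 to 915, 857 to 919 and 470 to 593 calls. E2F1 and GRK5 changed sign with sulforaphane under TMM factors, at 0.0165 and 0.01679. With the replicate number as a block the calls were 915, 903 and 505 and the medians of the 92 genes -0.97, 0.82 and 1.94. Deviations of same-numbered libraries correlated between -0.181 and 0.211, so the numbers were not taken as pairs, and not every library correlated best with its own number.

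Depth limits the genes of few counts most, as in the sulforaphane libraries of NXPH2, SOCS2 and HTR1D.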

Other observations

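Sulforaphane replicate 3 was the highest of its group in most of the 92 genes. It was the lowest in 19 of them (20.65%, against 24.41% of the rows that passed the same limits on name and level). The 19 genes were VAV3, TCF19, NOV, CDCA7, PLEKHA7, CHSY3, FAM84A, KIF24, LOC100522887, PADI1, CDH11, AHRR, SYT12, CKB, NCCRP1, AXIN2, FAM174B, FZD8 and ST6GALNAC5. TCF19 was at 6.08, 7.74 and 4.88 FPKM in the sulforaphane libraries, CDCA7 at 1.37, 1.72 and 1.11 FPKM, and NCCRP1 at 1.09, 0.85 and 0.47 FPKM. Outside the 92, the helicase genes had the same order of libraries as TCF19 and CDCA7: MCM2 was at 28.99, 32.86 and 17.99 FPKM, MCM5 at 46.37, 49.16 and 29.61 FPKM and MCM7 at 64.96, 72.31 and 44.77 FPKM. E2F1 was at 8.8, 11.81 and 8.37 FPKM. These genes were picked out after their values were seen, and no test was made.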
